A study of Mus musculus with 36 samples.

Results

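Of the 37417 genes counted in 36 subcutaneous mouse tumours, 8 tumour suppressors and oncogenes are described here: Cdkn2a, Cdkn2b, Mtap, Trp53, Mdm2, Cdkn1a, Smad4 and Myc. They were picked by name because lesions in them are often used to tell tumour cell lines apart, and all 8 were in the table. Levels are counts scaled to the total assigned to genes in the library, on the scale of counts per 1000000 (CPM), and 7 of the 8 exceeded 1 CPM in at least 4 libraries, a filter passed by 15217 genes in all. Cdkn2a did not pass it.

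The tumours came from wild-type mice aged 12 weeks that had been injected under the skin with 1 of 3 cell lines. Per the labels, MC38 (colon) and PancO2 (pancreas) were grown in C57BL/6J mice and CT26 (colon) in BALB/c mice. Each mouse received 10 mg/kg of a control IgG, an anti-CTLA4 or an anti-PD-1 antibody by intraperitoneal injection, which gives 9 labelled groups of 4 libraries, each library from 1 numbered mouse. Because all the tumours are grafts, every library mixes RNA of the grafted line with RNA of host stroma and immune cells, and in such bulk samples fewer cells of a type and less RNA per cell cannot be told apart.

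The labels did not sort the libraries. H2-Ea-ps, an MHC class II gene that C57BL/6 mice do not express and BALB/c mice do, lay at 32.8 to 134 CPM in 12 libraries and at 0.0845 CPM or less in the other 24. Cp, which encodes the copper carrier ceruloplasmin, lay at 1389 to 2168 CPM in 12 of those 24 and at 611 CPM or less elsewhere. The genes were therefore described in 3 classes of 12 libraries, called the H2-Ea class (H2-Ea-ps above 10 CPM), the Cp-high class (Cp above 1000 CPM) and the third class (neither). The H2-Ea class held 4 libraries labelled with each model, the Cp-high class 4 labelled MC38, 3 CT26 and 5 PancO2, and the third class 4 labelled MC38, 5 CT26 and 3 PancO2. The classes come from the libraries' own values and are not the groups of the study, so differences between them are given as a description with no test. Totals ran from 7883106 to 41751023 counts per library, and the lowest belonged to PancO2 anti-PD-1 71, a library of the H2-Ea class. In it 86.5% of listed reads were not assigned to a gene, against at most 63.4% in the other 35.

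The genes belong to linked brakes on cell division. Cdkn2a encodes p16, which inhibits the cyclin D kinases CDK4 and CDK6, and, from another first exon, ARF, which restrains MDM2. Its neighbour Cdkn2b encodes the related inhibitor p15, and Mtap, the next protein-coding gene on the other side, encodes the enzyme that recycles methylthioadenosine into methionine and is often lost together with Cdkn2a in tumours. Trp53 encodes the transcription factor p53, MDM2 is the ligase that marks p53 for destruction and is itself a p53 target, and Cdkn1a encodes p21, the CDK inhibitor through which p53 halts the cycle. SMAD4 carries TGF-beta signals into the nucleus, and MYC drives growth, ribosome production and nucleotide synthesis.

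In the annotation of GRCm38, Mtap covers chr4:89137122-89181081 on the plus strand, Cdkn2a chr4:89274471-89294653 and Cdkn2b chr4:89306299-89311039, both on the minus strand. The RefSeq promoter table for GRCm38.p6 held start sites for 6 of the 8 genes, with windows running from 250 bases before a start to 50 after it. The windows of Mtap (chr4:89137120-89137419, plus strand) and of the 2 Cdkn2a starts, the first of them for the ARF transcript (chr4:89294570-89294869) and the second for p16 (chr4:89282143-89282442, both minus strand), are shown because these neighbours differed most in level. Capitals mark the GC box GGGCGG (or CCGCCC) and the CCAAT box CCAAT (or ATTGG), which overlap in the last window.
Mtap: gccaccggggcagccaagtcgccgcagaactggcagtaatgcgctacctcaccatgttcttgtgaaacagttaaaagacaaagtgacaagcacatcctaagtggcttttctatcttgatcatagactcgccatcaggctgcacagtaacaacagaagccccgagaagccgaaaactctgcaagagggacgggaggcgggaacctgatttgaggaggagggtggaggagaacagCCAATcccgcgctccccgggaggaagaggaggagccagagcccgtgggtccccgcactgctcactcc
Cdkn2a, ARF start: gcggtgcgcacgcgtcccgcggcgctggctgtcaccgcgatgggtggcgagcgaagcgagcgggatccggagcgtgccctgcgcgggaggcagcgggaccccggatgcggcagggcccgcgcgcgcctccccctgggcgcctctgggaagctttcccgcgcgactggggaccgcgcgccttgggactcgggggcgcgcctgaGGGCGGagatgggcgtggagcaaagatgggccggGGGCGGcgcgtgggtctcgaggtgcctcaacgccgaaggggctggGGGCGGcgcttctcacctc
Cdkn2a, p16 start: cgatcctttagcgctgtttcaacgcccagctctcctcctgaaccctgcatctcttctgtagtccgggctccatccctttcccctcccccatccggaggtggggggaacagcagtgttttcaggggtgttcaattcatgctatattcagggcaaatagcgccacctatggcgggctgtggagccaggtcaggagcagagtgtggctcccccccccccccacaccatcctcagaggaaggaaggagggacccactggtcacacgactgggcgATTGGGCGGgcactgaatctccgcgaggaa
The ARF window held 3 GC boxes and 77% G and C, the p16 window 1 GC box and 60.3%, and the Mtap window 0 GC boxes, 1 CCAAT box and 57%. Over 32851 promoter windows of this length, 35.7% held a GC box on either strand and 37.4% a CCAAT box, and the median content of G and C was 52.7%. These matches are a description of the reference sequence of the mouse, not of the grafted lines.

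Cdkn2a was close to silent in every tumour. It ran from 0.224 to 0.808 CPM with a median of 0.374 in the H2-Ea class, from 0.245 to 0.987 CPM with a median of 0.463 in the Cp-high class, and from 0.0326 to 0.325 CPM with a median of 0.100 in the third class. These levels rest on 4 to 15, 6 to 23 and 1 to 11 counts per library, so counting error covers much of the spread. The third class had the lowest median, 4.63-fold below that of the Cp-high class, but its range overlapped those of both other classes.

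Cdkn2b was barely above that. It lay between 0.373 and 0.815 CPM (median 0.601) in the H2-Ea class, between 0.2797 and 1.44 CPM (median 0.744) in the Cp-high class and between 0.223 and 1.02 CPM (median 0.363) in the third class. All 3 ranges overlapped. Neither of these CDK inhibitors therefore marked a single class, and both were low in all of them.

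Mtap separated the classes completely. It ran from 208 to 258 CPM (median 239) in the H2-Ea class, from 5.98 to 10.2 CPM (median 8.34) in the Cp-high class and from 289 to 412 CPM (median 332) in the third class. The median of the Cp-high class was 28.6-fold below that of the H2-Ea class and 39.9-fold below that of the third class. The Cp-high level was low but not 0, since it rested on 110 to 381 counts per library. Among all genes above the filter, 5.18% lay entirely below both other classes in the Cp-high class, and 0.9% did so with a median at least 8-fold lower. Of the 2007 genes with a median of at least 100 CPM in both other classes, Mtap ranked 11 by the size of the gap. At the upper end, 5.59% of genes lay entirely above both other classes in the third class, as Mtap did.

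**Figure D1:**
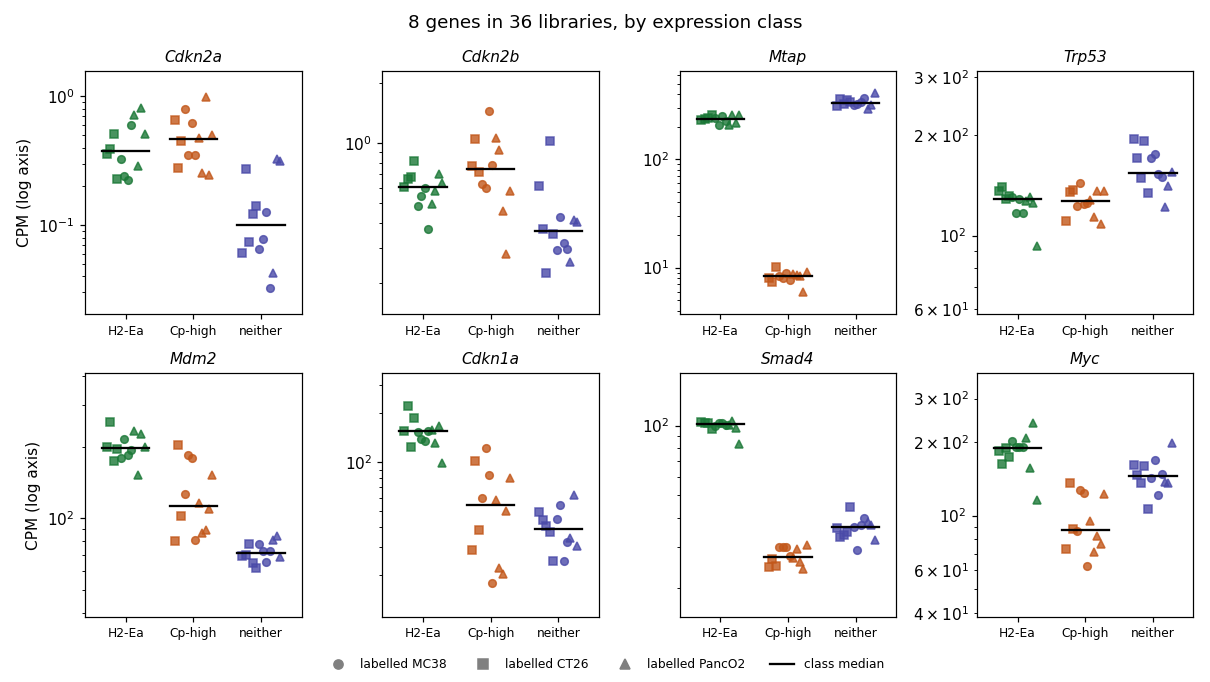
Level of each of the 8 genes in CPM (log axis) in the 12 libraries of each class, 1 point per library, shaped by labelled model, with a line at the class median. Mtap lies between 5.98 and 10.2 CPM in every Cp-high library and at 208 CPM or more elsewhere, Smad4 is highest in the H2-Ea class, and Cdkn2a stays under 1 CPM in all 36 libraries.

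No relation of the residual Mtap signal to summed leukocyte, fibroblast or endothelial marker genes was detected. In the 12 Cp-high libraries, log2 Mtap was set against the summed level of 8 leukocyte, 7 fibroblast and 5 endothelial genes, 3 relations chosen after the levels were seen. For leukocyte genes, which summed to 1012 to 2085 CPM, Pearson's r was 0.0128 (permutation p = 0.999, two-sided, adjusted p = 0.999) and Spearman's rho 0.00699 (permutation p = 0.989, adjusted p = 0.989). For fibroblast genes r was 0.00498 (permutation p = 0.966, adjusted p = 0.999) and rho -0.154 (permutation p = 0.636, adjusted p = 0.954), and for endothelial genes r was -0.217 (permutation p = 0.510, adjusted p = 0.999) and rho -0.182 (permutation p = 0.579, adjusted p = 0.954). Without the 2 libraries farthest from the median of the markers, r was 0.128, -0.269 and -0.148. With 12 libraries that differ by little in Mtap, a weak relation would not be detectable. The sums also lean on single genes. In the Cp-high class Lyz2 had a median of 649 CPM, where the leukocyte sum had 1318. Dcn had 2313 CPM, where the fibroblast sum had 5046. Dcn lay entirely above both other classes there, so the sums need not follow the share of host cells. Which cells the residual reads came from was not tested.

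Of the genes around Cdkn2a that passed the filter, only Mtap lay entirely below both other classes in the Cp-high class. The annotation places 38 other genes of the table within 1 Mb of Cdkn2a, of which 10 passed the filter. Klhl9, a ubiquitin ligase adaptor gene 552 kb away, ran from 80.7 to 141 CPM in the Cp-high class against 78.5 to 102 in the H2-Ea class and 119 to 146 in the third. Focad, a focal adhesion gene 863 kb away, had a median of 12.5 CPM in the Cp-high class against 23.8 and 24.9. Its Cp-high range of 10.4 to 17.2 CPM lay below that of the third class (20.1 to 31.6 CPM). It overlapped that of the H2-Ea class (16.5 to 29.1 CPM).

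Close to Cdkn2a, noncoding RNAs went the other way. Gm12606, annotated as a lincRNA at chr4:89235699-89273403 on the minus strand, between Mtap and Cdkn2a, ran from 118 to 160 CPM in the Cp-high class, from 1.05 to 3.27 CPM in the H2-Ea class and from 0 to 0.0326 CPM in the third class. Gm12602, just upstream of Mtap, had medians of 6.77 CPM in the Cp-high class, 1.07 in the H2-Ea class and 2.16 in the third. Wincr1, a lincRNA 190 kb from Cdkn2a, had medians of 7.75, 0.104 and 4.86 CPM in the same order. Gm12606 and Gm12602 lay entirely above both other classes in the Cp-high class, as 8.12% of all genes did, and Wincr1 lay entirely below both in the H2-Ea class, as 8.72% did. Reads thus came from both sides of Mtap in Cp-high tumours. The labels name a TruSeq RNA V2 kit and the methods of the study a stranded KAPA kit, and whether the counting used strand is not given in either, so reads of these RNAs and of the opposite strand cannot be told apart.

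The other 3 neighbours that passed were Hacd4, Ifnb1 and Mrpl48-ps. Hacd4, a fatty acid elongation gene, had overlapping ranges, with medians of 12.2 to 21.5 CPM. Ifnb1, the interferon beta gene, ran from 0 to 4.03 CPM (median 0.74) in the Cp-high class and reached 0.242 CPM at most outside that class. Mrpl48-ps, a processed pseudogene, lay at 1.52 to 2.59 CPM in the H2-Ea class and at 0.0841 CPM or less elsewhere, and such a gene copy shares reads with its parent, so its level is uncertain.

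**Figure D2:**
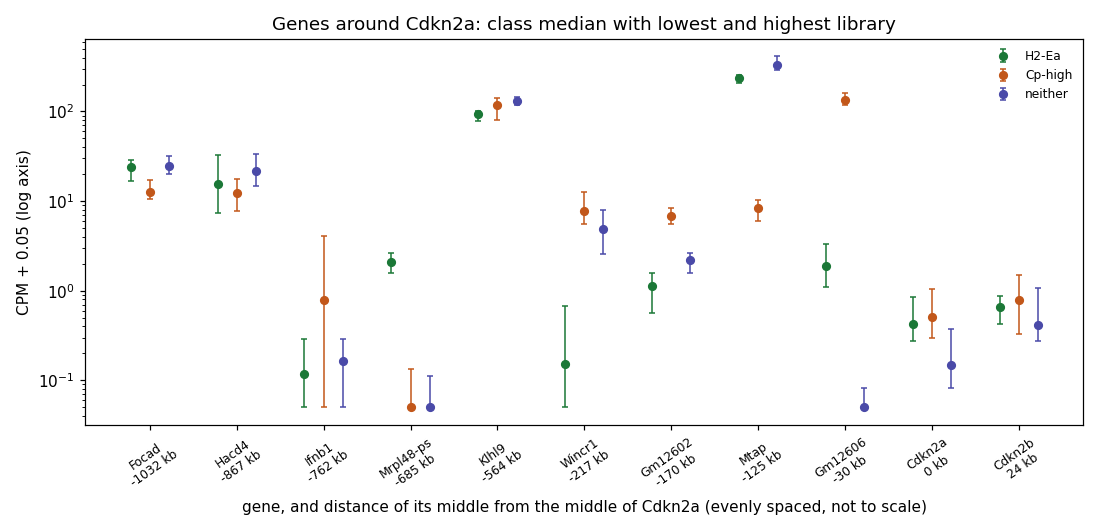
Median level (point) with the lowest and highest library (bars) in each class for Cdkn2a and the 10 genes within 1 Mb of it that passed the filter, as CPM + 0.05 on a log axis, in chromosome order with the distance from the middle of Cdkn2a in kb. In the Cp-high class the median is 8.34 CPM for Mtap, 134 CPM for Gm12606 next to it and 119 CPM for Klhl9.

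Genes of the metabolic steps around MTAP were present in all 3 classes. Of 13 genes of methionine salvage, polyamine synthesis and the MTA-sensitive methyltransferase complex, all passed the filter, 2 lay entirely below and 1 entirely above both other classes in the Cp-high class, 2 lay entirely below in the H2-Ea class and 1 entirely above in the third class. Over all genes these shares were 5.18%, 8.12%, 8.72% and 5.59%, and nothing is read from such small counts for the list as a whole. The 2 low genes in the Cp-high class were Wdr77, the partner of the arginine methyltransferase PRMT5, at a median of 75.6 CPM against 144 and 128, and Sms, the spermine synthase gene, at 73.0 CPM against 108 and 100. Sat1, which encodes the enzyme that acetylates polyamines for export, was the high one at 270 CPM against 141 and 133. Mri1 and Adi1, both of methionine salvage, were the low pair of the H2-Ea class, with medians of 15.4 CPM against 27.5 and 35.9 and of 21.6 CPM against 35.6 and 37.7. Prmt5, the high gene of the third class, had medians of 65.3 CPM in the H2-Ea class, 62.2 in the Cp-high class and 96.0 in the third. The median log2 ratio of the list was -0.07 for Cp-high over H2-Ea and -0.19 for Cp-high over the third class, against 0.08 and -0.03 over all genes.

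In the CDK and RB axis, 17 of the 18 genes listed were found by symbol and passed the filter. Of these, 1 gene lay entirely below both other classes in each class, and 1, Ccne1, lay entirely above in the H2-Ea class, at a median of 33.8 CPM against 15.7 and 13.9. Over all genes, 8.72% lay entirely below in the H2-Ea class, 5.18% in the Cp-high class and 2.6% in the third, and 5.07% entirely above in the H2-Ea class, so counts of 1 in 17 are near the background and the genes are named as a description. Cdk6, the kinase that p16 and p15 inhibit, was the low gene of the Cp-high class with a median of 11.3 CPM against 51.1 in the H2-Ea class and 32.6 in the third. Ccnd2, a D cyclin, was the low gene of the third class at 39.5 CPM against 254 and 144, and Cdkn1b, the p27 inhibitor gene, that of the H2-Ea class at 80.5 CPM against 179 and 135.

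Trp53 RNA was present at a similar level throughout. It ran from 93.0 to 140 CPM (median 129) in the H2-Ea class, from 109 to 144 CPM (median 127) in the Cp-high class and from 122 to 196 CPM (median 155) in the third class. The lowest value was that of PancO2 anti-PD-1 71, and without it the H2-Ea class began at 117 CPM. All ranges overlapped, and class medians differed by at most 1.22-fold.

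Mdm2 and Cdkn1a varied far more than Trp53. Mdm2 ran from 153 to 256 CPM (median 198) in the H2-Ea class, from 80.5 to 204 CPM (median 113) in the Cp-high class and from 61.6 to 84.1 CPM (median 71.3) in the third. Cdkn1a ran from 98.6 to 221 CPM (median 155), from 17.9 to 123 CPM (median 54.3) and from 24.5 to 62.5 CPM (median 38.9) in the same order. Both were thus highest in the H2-Ea class, where the median of Mdm2 was 2.77-fold and that of Cdkn1a 3.975-fold that of the third class. For Mdm2 the H2-Ea range overlapped that of the Cp-high class and lay above that of the third class. For Cdkn1a the overlap with the Cp-high class came from PancO2 anti-PD-1 71 alone, because the other 11 libraries of the H2-Ea class began at 123.4 CPM and the highest Cp-high library reached 123.2.

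Cdkn1a and Mdm2 moved together from tumour to tumour within a class, a relation picked after the levels were seen. On log2(CPM + 0.5), Pearson's r between Cdkn1a and Mdm2 was 0.948 over the 12 Cp-high libraries (permutation p = 4e-05, two-sided, adjusted over 3 classes p = 0.00012) and Spearman's rho 0.944 (permutation p = 1e-05, the smallest that 100000 permutations can give, adjusted p = 3e-05). It was 0.955 without the 2 libraries farthest from the median. In that class Cdkn1a spanned 6.89-fold and Mdm2 2.53-fold, while Trp53 spanned 1.32-fold. Over all 36 libraries with class medians removed, rho between Cdkn1a and Mdm2 was 0.8. Other genes lay closer to each, such as Slc2a1 to Mdm2 (0.898) and Hk2 to Cdkn1a (0.873). How many gene pairs reach such values was not counted, and a part of p53 in the relation was not tested.

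The relation was looser in the other classes. In the H2-Ea class r was 0.534 (permutation p = 0.0724, adjusted p = 0.0724) and rho 0.594 (permutation p = 0.0463, adjusted p = 0.0463), and without PancO2 anti-PD-1 71 r was 0.704 over 11 libraries (permutation p = 0.0157). Without the 2 farthest libraries r was 0.526. In the third class r was 0.631 (permutation p = 0.0284, adjusted p = 0.0426) and rho 0.615 (permutation p = 0.0370, adjusted p = 0.0463), and r fell to 0.411 without the 2 farthest libraries, so that relation rests on them. Whether the classes differ in this relation was not tested.

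**Figure D3:**
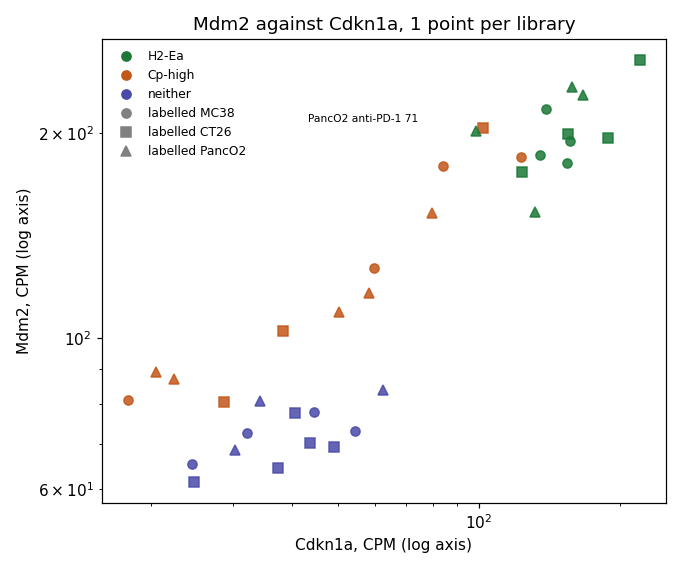
Mdm2 against Cdkn1a in CPM (log axes), 1 point per library, coloured by class and shaped by labelled model. The Cp-high libraries run along a line from 17.9 to 123 CPM of Cdkn1a (r = 0.948 over 12 libraries), the H2-Ea libraries sit at the upper right and those of the third class at the lower left.

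The window upstream of the first Cdkn1a start (chr17:29090729-29091028, plus strand, GRCm38.p6) is shown because it carries the letters ACATGT, the core of p53 response elements, in capitals, which were searched for after the sequence had been seen.
Cdkn1a: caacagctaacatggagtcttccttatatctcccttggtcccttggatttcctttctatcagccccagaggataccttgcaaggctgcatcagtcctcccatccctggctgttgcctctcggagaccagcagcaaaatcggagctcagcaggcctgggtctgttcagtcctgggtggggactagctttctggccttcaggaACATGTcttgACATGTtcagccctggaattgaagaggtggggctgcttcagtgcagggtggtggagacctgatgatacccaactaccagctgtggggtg
ACATGT reads the same on both strands. It occurred 2 times in this window and 0 times in the window of the second Cdkn1a start (chr17:29093519-29093818). The windows of Mdm2, Trp53, Mtap, Cdkn2a and Cdkn2b also held it 0 times. Sequence outside these windows was not searched, so a 0 does not speak to elements elsewhere in a gene. Other forms of the core were not searched for, so a 0 does not exclude an element inside a window either. Over all 32851 windows, 5.28% held it and 0.329% held it at least 2 times.

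Other p53 targets were split between the classes. Of 22 listed, all above the filter, 3 lay entirely above both other classes in the Cp-high class, 2 lay entirely below in the H2-Ea class and 2 entirely below in the third class. Over all genes the shares were 8.12%, 8.72% and 2.6%, and 2 of 22 in the H2-Ea class is near its background. The 3 high ones in the Cp-high class were Fas, the death receptor gene, at a median of 50.01 CPM against 5.50 in the H2-Ea class and 12.2 in the third, Gdf15, a stress cytokine gene, at 6.63 CPM against 0.286 and 0.717, and Trp53inp1 at 51.3 CPM against 16.2 and 17.3. Eda2r, a death domain receptor gene, had 11.8 CPM in the third class against 35.4 and 47.5, and Tigar, a regulator of glycolysis, 5.44 CPM against 19.7 and 14.3. Fas, Gdf15 and Trp53inp1 were named for lying highest in the Cp-high class. Their order therefore cannot be weighed against that of Cdkn1a and Mdm2, which had the H2-Ea class on top. Tigar had the same order of class medians as Cdkn1a and Mdm2, as did Bbc3, Bax, Zmat3, Aen, Rps27l and Ercc5. Sesn2, Polk, Plk2 and Tnfrsf10b also had their highest median in the H2-Ea class. The rest of the 22, Eda2r among them, had it in the Cp-high class. None of the 22 lay entirely above both other classes in the H2-Ea class. How many of all genes share the order of Cdkn1a and Mdm2 was not counted. Within the Cp-high class, 19 of the 22 had a positive Spearman correlation with Cdkn1a, with a median rho of 0.664, while 37.3% of all genes were positive with a median of -0.21. The count was 14 of 22 in the H2-Ea class and 13 of 22 in the third, where 50.4% and 47.5% of all genes were positive.

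Of 8 relatives and regulators of p53, 7 passed the filter, and 2 of them, the deubiquitinase gene Usp7 and the repair gene Trp53bp1, lay entirely below both other classes in the H2-Ea class, as 8.72% of all genes did. Trp53bp1 had medians of 44.6 CPM there, 65.7 in the Cp-high class and 78.3 in the third, and Usp7 of 195, 222 and 234 CPM.

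Smad4 set the H2-Ea class apart. It ran from 83.5 to 105 CPM (median 101) there, from 24.1 to 30.7 CPM (median 27.1) in the Cp-high class and from 29.05 to 44.4 CPM (median 36.4) in the third class. The H2-Ea median was 3.73-fold that of the Cp-high class and 2.785-fold that of the third. Of all genes above the filter, 5.07% lay entirely above both other classes in the H2-Ea class. The lowest library there was PancO2 anti-PD-1 71, and the other 11 began at 96.6 CPM. Smad4 was the steadiest of the genes within the H2-Ea class besides Mtap, with 1.26-fold between its lowest and highest library against 1.24-fold for Mtap. In none of the classes did Smad4 approach 0.

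Most neighbours of Smad4 did not share its order of class medians, but Mex3c and Ska1 did. Within 1 Mb, 6 other genes passed the filter. Elac1, a tRNA-processing gene 31.3 kb away, had overlapping ranges in all classes with medians of 17.2 to 21.1 CPM, and Mex3c, an RNA-binding ubiquitin ligase gene 46.4 kb away, had medians of 136, 86.3 and 105 CPM with overlaps. Ska1, a kinetochore gene, lay entirely above both other classes in the H2-Ea class (median 36.7 CPM) and entirely below them in the Cp-high class (15.3 CPM), and Me2, the mitochondrial malic enzyme gene, lay entirely below them in the Cp-high class (40.9 CPM against 71.4 and 76.8). Cxxc1 and Mbd1, both for CpG-binding proteins, had class medians of 41.4 to 57.98 and 35.7 to 39.3 CPM with overlaps.

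Some receptors and ligands of the TGF-beta pathway had the opposite class order to Smad4. Of 24 genes listed 22 passed the filter, and 5 of them lay entirely below both other classes in the H2-Ea class, 5 entirely above them in the Cp-high class, 1 entirely below in the Cp-high class and 2 entirely above in the third. Over all genes these shares were 8.72%, 8.12%, 5.18% and 5.59%. Tgfbr2, which encodes the ligand-binding receptor, had medians of 127 CPM in the H2-Ea class, 580 in the Cp-high class and 241 in the third, and Tgfb3, a ligand gene, 19.1, 129 and 47.3 CPM. Among targets, Ccn2 had 26.9, 142 and 13.3 CPM and Id1 7.49, 17.3 and 3.27 CPM. Tgfbr3, the betaglycan co-receptor gene, went the other way with 175, 23.1 and 207 CPM. The sum of the 7 fibroblast markers was also lowest in the H2-Ea class, at 1904 to 3886 CPM, against 3286 to 6448 in the Cp-high class and 5642 to 12800 in the third, where it rather than Tgfbr2 or Tgfb3 was highest. Its members did not move as 1, since Col3a1 lay entirely above both other classes in the third class, Col1a2 in the H2-Ea class and Dcn and Lum in the Cp-high class. The part of fibroblasts in the pathway's levels was not tested.

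Myc was expressed in all classes. It ran from 115 to 237 CPM (median 189) in the H2-Ea class, from 62 to 136 CPM (median 87.3) in the Cp-high class and from 106 to 197 CPM (median 145) in the third class. All ranges overlapped. Without PancO2 anti-PD-1 71, the H2-Ea class began at 157 CPM, above every Cp-high library.

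A relative of Myc was high in the third class. Mycn, the N-MYC gene, lay between 19.3 and 52.9 CPM there and at 1.01 CPM or less in the other 24 libraries. Of the 10 genes of the MYC network, all above the filter, Mycn was the only one entirely above both other classes in the third class, Mga, a repressor of MYC targets, the only one entirely below in the Cp-high class (60.0 CPM against 154 and 163), and Mxd4, a MAX partner gene, the only one entirely below in the H2-Ea class. Over all genes these shares were 5.59%, 5.18% and 8.72%, to which 1 in 10 is close. Of 16 MYC targets, 3 lay entirely below both other classes in the Cp-high class, as 5.18% of all genes did, namely the polyamine enzyme gene Srm (40.6 CPM against 129 and 90.1) and the nucleolar genes Gnl3 (70.6 CPM against 177 and 117) and Npm1 (814 CPM against 1180 and 1550). Odc1, the rate-limiting enzyme of polyamine synthesis, and Nolc1, a nucleolar gene, lay entirely above both in the H2-Ea class, as 5.07% of all genes did, with medians of 410 and 225 CPM. Eif4a1, a translation initiation gene, lay entirely below both there, as 8.72% did, at 183 to 499 CPM against 505 or more.

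Levels of different genes can be compared per kb of exon. In the H2-Ea class, Mtap (73.9 CPM per kb) and Myc (69.6) led, followed by Cdkn1a (43.5), Mdm2 (38.9), Trp53 (31.9) and Smad4 (27.3), with Cdkn2b (0.432) and Cdkn2a (0.319) last. In the Cp-high class, Myc (32.1) and Trp53 (31.3) led and Mtap lay at 2.59 CPM per kb. In the third class, Mtap (103) and Myc (53.3) led again.

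For each gene, the genes whose level was most like it were sought over the 36 libraries after class medians of log2(CPM + 1) were removed. Mdm2 was closest to the glucose transporter gene Slc2a1 (Spearman's rho 0.898), the stress factor gene Atf3 (0.895) and Smad7 (0.873), which encodes an inhibitor of SMAD signalling. Cdkn1a was closest to the hexokinase gene Hk2 (0.873), the phosphatase gene Dusp5 (0.857) and the uridine phosphorylase gene Upp1 (0.856). Trp53 was closest to Tubg1 (0.867), Rangap1 (0.858) and Rcc1 (0.856), and Myc to Steap1 (0.877), Hspa9 (0.8291) and Lonp1 (0.819). Likeness was weaker for the rest. For Smad4 the best were Trafd1 (0.663), C4b (0.654) and Vwa5a (0.651), and for Mtap Pold3 (0.626), Gm1976 (0.610) and Ddx11 (0.595). For Cdkn2a they were Gm7129 (0.550), Tpt1-ps6 (0.513) and Nfu1 (0.492), and for Cdkn2b Cdh3 (0.516), Zfp984 (0.513) and Lrrtm2 (0.493). These are the highest of 15217 values each and share library depth.

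Between the labelled groups, none of the 8 genes differed past the threshold where it was tested. Each labelled model held 4 libraries of the H2-Ea class, so these comparisons cannot show whether the cell lines themselves differ. Cdkn2a was too low for the filter in both MC38 antibody comparisons and was tested in 7 of the 9, and the other genes in all 9. The study compared responsive with nonresponsive tumours. Here 3 comparisons of models under IgG and 6 of an antibody with IgG were fitted over all genes with the quasi-likelihood test of edgeR. The share of genes called was 0% in each of the 9, with 0 of 16285 to 16510 genes past an adjusted p of 0.05, and 25 to 912 genes had an unadjusted p under 0.05. Mtap differed by log2 fold changes of -0.68 to 0.22 with standard errors of 1.18 to 1.47, and its lowest adjusted p in edgeR was 0.951. Smad4 differed by -0.47 to 0.47 with standard errors of 0.62 to 0.64, and its lowest adjusted p in edgeR was 0.954. Mtap spread from 8.33 to 317 CPM among the 4 libraries labelled MC38 IgG, from 8.002 to 359 CPM in CT26 IgG and from 8.81 to 319 CPM in PancO2 IgG, and each of the 9 labelled groups held at least 1 Cp-high library.

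With a term for the 3 classes over all 36 libraries, the standard errors of these log2 fold changes were 0.11 for both genes, and the changes ran from -0.10 to 0.20 for Mtap and from -0.09 to 0.07 for Smad4. None of the 8 genes passed the threshold in edgeR with that term in any of the 9 comparisons, and the lowest adjusted p among them was 0.783, for Cdkn2b. At unadjusted p, 1 comparison of Cdkn1a and 2 of Mdm2 fell under 0.05. Each p-value sets a fold change between labelled groups against the spread between tumours that the fitted terms leave.

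**Figure D4:**
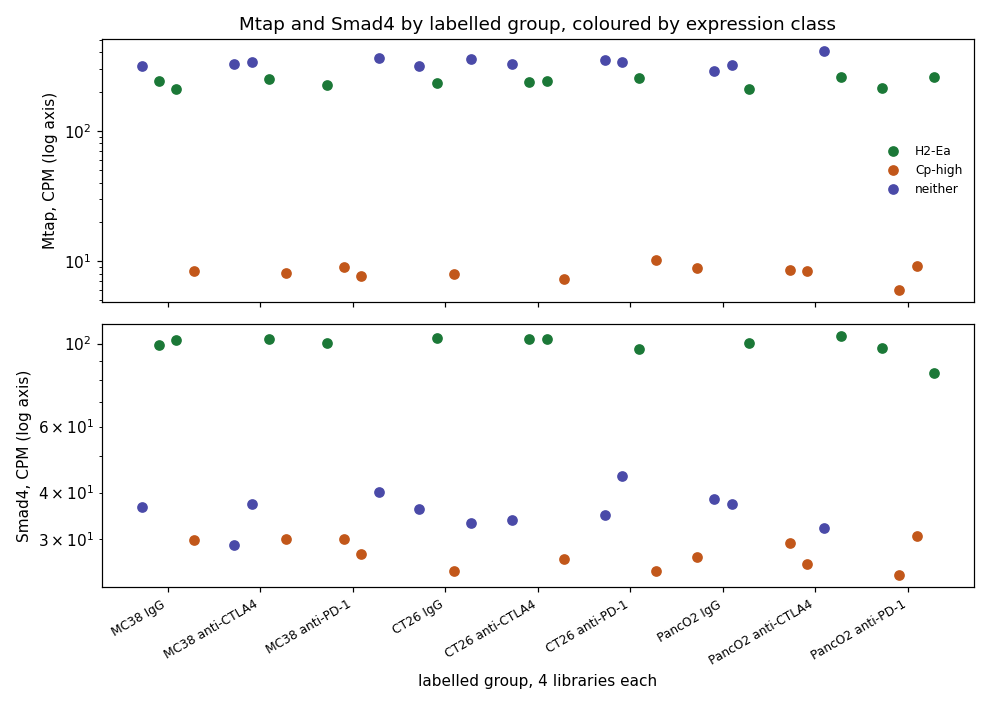
Mtap (top) and Smad4 (bottom) in CPM (log axes) in the 4 libraries of each of the 9 labelled groups, 1 point per library, coloured by class. Every labelled group holds at least 1 library with Mtap at 10.2 CPM or less beside libraries at 208 CPM or more, and Smad4 follows the class in the same way.

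As background on the grafted lines, CT26 has been described as lacking Cdkn2a, MC38 as carrying mutant Trp53 and PancO2 as carrying altered Smad4. In these libraries Cdkn2a was under 1 CPM in all 3 classes, so its level set no class apart. A changed protein sequence cannot be read from counts, so Trp53 and Smad4, both present in every library, say nothing on such lesions here. Among markers of tissue of origin, the Cp-high class had Pdx1, a pancreatic and duodenal factor, at 38.4 to 63.9 CPM against at most 7.74 elsewhere, and Krt19, a duct keratin, at 6.03 to 51.3 CPM against at most 0.930. It also had Cdx2, an intestinal factor, at 5.59 to 13.7 CPM against at most 3.43, while the acinar genes Cpa1, Prss2 and Ctrb1 were at 0.253 CPM or less in all 36 libraries. Most other members of these lists did not set it apart. Of the 7 pancreatic markers, Sox9 had a higher median in the third class (158 CPM) than in the Cp-high class (128 CPM) and Krt7 overlapped. Of the 6 colon markers, Gpa33 lay entirely above in the Cp-high class but under 1 CPM, Lgals4, Cdh17 and Vil1 overlapped, and Cdx1 reached at most 0.0699 CPM anywhere. Neither the counts of the 8 genes nor these markers assign a line to a class beyond this, and whether the Mtap locus is deleted in the Cp-high tumours was not tested.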

How the data were processed

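Values were raw read counts per gene deposited by the authors, 1 column for each of 36 libraries. Per the labels and methods, reads were mapped to GRCm38/mm10 with TopHat and Bowtie and assigned with HTSeq, which sets aside reads with several positions. The strand setting is not given in the sources used here. The 5 summary lines, 44.8% to 86.5% of listed reads, were left out. CPM used gene totals, which ran from 7883106 to 41751023, so precision is lowest for genes with few counts. Positions came from GENCODE M21 and promoters from RefSeq. The members, lists, classes and named genes (the 8 genes, expressed neighbours within 1 Mb of Cdkn2a or Smad4, up to 4 non-overlapping genes per list, and the 3 genes most like each) were chosen with earlier results of these data known. Other genes were named after their values were seen. Labelled groups were compared with edgeR 4.0.16 (R 4.3.3, filterByExpr, TMM, robust quasi-likelihood fits, two-sided, Benjamini-Hochberg), model comparisons on the 12 IgG libraries and antibody comparisons on the 12 of 1 labelled model. Standard errors are the log2 fold change over the root of F. DESeq2 1.42.0, limma-voom 3.58.1, other scalings, filters, class limits, a class term and leaving out each library were alternatives. The edgeR, DESeq2 and limma-voom tests were tried on simulated counts for anti-PD-1 over IgG in MC38. Those counts held no classes, so genes recovered there do not give the power in these libraries. Other steps were not simulated. Correlations used 100000 permutations (scipy 1.17.1).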

Additional observations from a re-analysis of the deposited data

Results flagged for a closer look

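Within the 9 labelled groups of 4 libraries, each of the 8 genes was searched for a library far from the other 3, and 10 of 72 sets held one, where chance gives about 1 in 20, or 3.6. In 8 of the 10 the library was the only one of the H2-Ea class in its group. Smad4 was high in 4 of these, at 103 CPM in MC38 anti-CTLA4 14 (others 29.05 to 37.3), 103 CPM in CT26 IgG 27 (24.6 to 36.03), 100.1 CPM in PancO2 IgG 54 (26.8 to 38.4) and 105 CPM in PancO2 anti-CTLA4 62 (25.7 to 32.2). Cdkn1a was high in CT26 IgG 27 at 155 CPM (28.6 to 49.05), CT26 anti-PD-1 42 at 188 CPM (24.7 to 38.3) and PancO2 anti-CTLA4 62 at 132 CPM (20.5 to 30.3). Mdm2 was high in CT26 IgG 27 at 199 CPM (69.3 to 80.5). The other 2 were Trp53 at 192 CPM in CT26 anti-PD-1 40 (131 to 137), in the third class, and Cdkn2a at 0.987 CPM in PancO2 anti-CTLA4 58 (0.253 to 0.317), in the Cp-high class.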

How the results depend on the processing

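All 9 label comparisons in edgeR gave 0 called genes also with DESeq2 size factors, without the filter, with limma-voom, and without each library in turn (0 to 0 in every comparison). The DESeq2 Wald test called 1 gene, Myh3, for PancO2 over MC38 under IgG and 1, again Myh3, for CT26 over MC38, and 2 each for anti-PD-1 over IgG in PancO2 (Sirpa and Srrm2) and anti-CTLA4 over IgG in PancO2 (Krt14 and Ankrd37). One fit of all 36 libraries called 49 genes for anti-PD-1 over IgG in PancO2. With the class term and without PancO2 anti-PD-1 71, an alternative chosen after the data were seen, 2 genes (Bche and Rhox10) were called for anti-CTLA4 over IgG in CT26. None of these genes is among the 8, and the cause was not tested. These genes were named after their values were seen.

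The number of genes with a class entirely outside both others was 2 (Mtap and Smad4) with TMM, with DESeq2 size factors and with limits of 1 CPM for H2-Ea-ps and 500 CPM for Cp, which moved 1 library. It ran from 2 to 3 when each library was left out, the third gene being Cdkn1a without PancO2 anti-PD-1 71. None of the log2 ratios of class medians that exceeded 1 SD between libraries changed sign under the alternatives run. Of 96 ratios under other scalings, limits or means, 89 moved by less than 1 SD, and 6 of the other 7 concerned Cdkn2a or Cdkn2b, which rest on few counts. When each library was left out, 24 of 864 ratios moved by more than 1 SD. All 24 were ratios of Cdkn2a to the third class, which ran from 1.61 to 2.27 for the H2-Ea class and from 1.92 to 2.58 for the Cp-high class on the log2 scale. No paired analysis was possible because the labelled groups share no mouse numbers. Depth limits Cdkn2a and Cdkn2b most, and the 8 genes were fitted with the labels as given, which the strain marker goes against.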
